A study of Mus musculus with 3 samples.

Results

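Twist1, Twist2, Prrx1, Prrx2, Snai1 and Snai2 encode transcription factors of embryonic mesenchyme, and these 6 genes, chosen by name out of 20780 autosomal protein-coding genes, were followed through limb development by the opening of their chromatin. For each gene, every called peak that overlapped the gene or the 20 kb on either side of it was taken, which gave 77 of 190443 peaks at embryonic day (E) 12.5, 59 of 102459 at E14.5 and 96 of 213613 at E16.5. Peaks that overlapped between libraries were joined, which gave 99 regions near the 6 genes out of 266531 in all, and a region that held a peak of all 3 libraries is called a common interval here. The 6 loci held 43 of the 84660 common intervals, of which 40 had at least 50 fragments in each library.

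The study asked how mesenchymal progenitors (MPs) of the mouse forelimb, marked by the gene Hic1, open their chromatin as they turn into cartilage, tendon and fibroblast lineages. C57BL/6J dams received 7.5 mg tamoxifen (300 uL, in sunflower oil, by gavage) at E10, so that cells then using Hic1 switched on the red reporter in Hic1CreERT2/CreERT2;Rosa26LSLtdTomato/tdTomato embryos. Cells positive for tdTomato and negative for CD45, CD117, CD31, CD11b, F4/80 and Ter119 were sorted, and their nuclei were profiled by single-cell ATAC-seq (scATAC-seq), in which a transposase cuts accessible DNA. All 3 groups shared this genotype and treatment, and there was no control without label. E12.5 and E14.5 were forelimbs, whereas E16.5 was the elbow segment (distal stylopod, elbow joint, proximal zeugopod), and forelimbs were digested with Dispase at E12.5 and with Collagenase A, Pronase and DNase later.

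Each stage was 1 library, and the labels do not give the number of embryos in it. Stage therefore cannot be told apart from library, or from digestion at E12.5. At E16.5 it cannot be told apart from limb segment or software version (Cell Ranger ATAC 1.2.0 in the matrix header, 1.0.1 in the earlier ones). No difference between stages could be tested, and every interval in the text is a 95% interval for counting error only. The libraries held 8294 nuclei with 87048167 cut sites at E12.5, 20023 with 204289151 at E14.5 and 14048 with 413425059 at E16.5. The E14.5 library stood apart in that 54.9% of its counts in common intervals lay at start sites of protein-coding genes, against 46.6% at E12.5 and 45.9% at E16.5, and in that its peaks were called narrower. Between 151 and 401 nucleus barcodes were shared by each pair of libraries. The start-site regions of Hic1 and Pdgfra, the latter a receptor widely found on mesenchymal cells, had a fragment in 12.3% and 12.5% of nuclei at E12.5, in 12.9% and 14.6% at E14.5, and in 11.4% and 12% at E16.5, once all nuclei were thinned to the same depth. Among marker genes of muscle, endothelium, blood, epithelium and Schwann cells, Myf5, Pecam1, Ptprc, Krt14 and Krt5 had no common interval at their start site.

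Twist1 and Twist2 are basic helix-loop-helix factors that pair with E proteins and bind the E-box, and Twist1 is required for limb bud mesenchyme. Prrx1 and Prrx2 are paired-related homeobox factors that mark early limb mesenchyme and act together in skeletal patterning. Snai1 and Snai2 are zinc finger repressors that bind E-boxes of the CAGGTG type and are known for silencing E-cadherin during the passage from epithelium to mesenchyme.

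The sequences below are windows of 5 intervals away from start sites with the largest fall (Twist1, Prrx2, Snai1) or rise (Twist2, Prrx1) of their gene from E12.5 to E16.5, together with the bases before the start of Snai1, the gene whose locus changed most in summed counts. RefSeq (build GRCm38.p6) gave a promoter for 5 of the 6 genes, and Snai2 had no entry. Capitals mark every CANNTG, the E-box core read by helix-loop-helix and Snai factors, and every TAATTA, a core read by homeobox factors. Both are read on either strand, since each is its own reverse complement, and CAGGTG (searched also as CACCTG) is 1 of the forms of CANNTG. All are written 5′ to 3′ on the strand of the gene, in the mm10 coordinates of that build.
Snai1, the 250 bases before its start, chr2:167537945-167538194, plus strand: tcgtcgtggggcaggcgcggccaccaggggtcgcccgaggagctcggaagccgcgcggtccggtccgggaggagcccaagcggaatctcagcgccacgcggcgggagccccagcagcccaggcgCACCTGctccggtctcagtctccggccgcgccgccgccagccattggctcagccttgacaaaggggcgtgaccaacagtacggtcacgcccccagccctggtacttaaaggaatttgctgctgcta
Snai1, 21.4 kb downstream, falling, chr2:167559692-167559891, plus strand: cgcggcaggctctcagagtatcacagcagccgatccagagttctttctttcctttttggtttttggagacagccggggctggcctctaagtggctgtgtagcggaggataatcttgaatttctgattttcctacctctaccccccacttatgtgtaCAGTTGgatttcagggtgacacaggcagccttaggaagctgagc
Twist1, 19.1 kb upstream, falling, chr12:33938485-33938684, plus strand: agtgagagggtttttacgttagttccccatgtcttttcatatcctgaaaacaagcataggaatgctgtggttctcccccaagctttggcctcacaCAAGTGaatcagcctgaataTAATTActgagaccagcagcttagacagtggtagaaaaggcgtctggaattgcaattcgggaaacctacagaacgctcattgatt
Prrx2, intron, 27.5 kb into the gene, falling, chr2:30872763-30872962, plus strand: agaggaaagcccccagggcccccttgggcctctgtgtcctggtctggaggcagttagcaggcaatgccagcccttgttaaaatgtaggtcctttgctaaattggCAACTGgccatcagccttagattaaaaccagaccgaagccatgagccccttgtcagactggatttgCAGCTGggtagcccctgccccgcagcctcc
Prrx1, intron, 38.8 kb into the gene, rising, chr1:163275259-163275458, minus strand: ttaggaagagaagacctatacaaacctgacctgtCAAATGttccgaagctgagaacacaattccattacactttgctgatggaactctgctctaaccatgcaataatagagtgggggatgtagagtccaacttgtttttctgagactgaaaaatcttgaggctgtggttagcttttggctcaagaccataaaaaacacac
Twist2, 56.6 kb from the start beyond the gene's end, rising, chr1:91858180-91858379, plus strand: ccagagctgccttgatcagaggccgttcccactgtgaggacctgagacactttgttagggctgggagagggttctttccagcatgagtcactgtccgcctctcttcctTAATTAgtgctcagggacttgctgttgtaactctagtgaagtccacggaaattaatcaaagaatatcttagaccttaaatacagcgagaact

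The Snai1 promoter held 1 E-box, of the CAGGTG type. That form stood in 17.2% of 32851 RefSeq promoters of 250 bases, and any CANNTG in 66.2% of them. The promoters of Twist1, Twist2, Prrx1 and Prrx2 held no CANNTG in these 250 bases, and Prrx1 alone among the 5 held a TAATTA, which stood in 4.84% of all promoters. The distal windows are the middle 200 bases of the stretch called in all 3 libraries. Among them 4 of 5 held a CANNTG, against 73.1% of 67685 such windows over common intervals away from start sites, and none was of the CAGGTG type, which stood in 13.0% of them. TAATTA stood in the windows near Twist1 and Twist2, and in 4.84% of all windows. A match describes letters and is not evidence of binding.

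Summed over its common intervals, the Snai1 locus lost the most accessibility of the 6 between E12.5 and E16.5, the Twist2 locus was lowest at E14.5, an order that turned per kb of called width, and the summed level of the other 4 stayed within 1.25-fold of the previous stage. Per kb of called width those 4 fell past 1.5-fold from E14.5 to E16.5 (log2 ratios of -0.93 for Twist1, -0.66 for Prrx1, -0.73 for Prrx2 and -1.05 for Snai2), as did 69.9% of all loci, and Snai2 rose past it from E12.5 to E14.5 (0.79), as did 34.6%. Levels are given as cut sites scaled to the library's total in autosomal common intervals (counts per 1000000, CPM), with the exact Poisson interval of the fragments counted. These sums depend on how much sequence was called at each locus, so different genes are compared only per kb of called peak, further on.

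**Figure D1:**
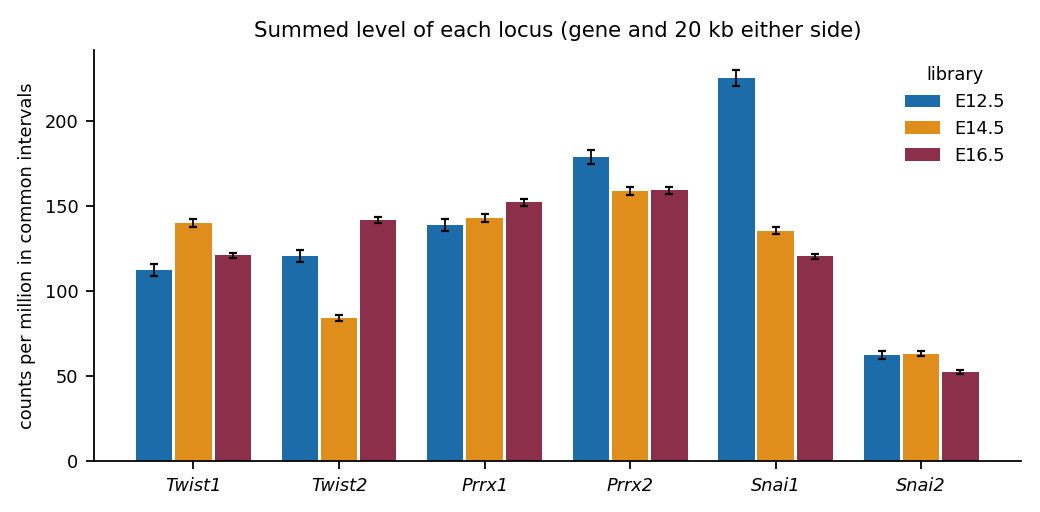
Summed level of the common intervals of each locus (vertical axis, CPM) for the 6 genes (horizontal axis) in the 3 libraries. Bars are 1 library each and whiskers are 95% counting intervals. Snai1 falls from 225.1 to 120.4 CPM, and Twist2 is lowest at E14.5 with 83.88 CPM.

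The Twist1 locus lies on chromosome 12 (33957671 to 33959829, plus strand, ENSMUSG00000035799.6). It stood at 112.3 CPM (108.9 to 115.8) at E12.5, 140.0 CPM (137.7 to 142.4) at E14.5 and 120.9 CPM (119.3 to 122.6) at E16.5. The 3 intervals did not overlap, and the E14.5 value was the highest. The log2 ratio of E14.5 over E12.5 was 0.32 (0.27 to 0.37) and that of E16.5 over E14.5 was -0.21 (-0.24 to -0.18).

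The Twist2 locus, on chromosome 1 (91801461 to 91848028, plus strand, ENSMUSG00000007805.4), stood at 120.5 CPM (117.0 to 124.1), 83.88 CPM (82.12 to 85.67) and 141.6 CPM (139.8 to 143.4) from E12.5 to E16.5. E14.5 was low and E16.5 was high, with no overlap of the intervals. Twist2 rose 1.69-fold from E14.5 to E16.5, a log2 ratio of 0.76 (0.72 to 0.79). Its common intervals were called over 15525, 8191 and 21242 bp at the 3 stages, and the same log2 ratio taken per kb of that width was -0.62. Over intervals of matched position (1 peak in each library, with a reciprocal overlap of at least 50%), which near Twist2 were 2 of 8 common intervals, it was -0.06. The first step of Twist2, E14.5 over E12.5, was -0.52 in summed counts, 0.40 per kb of width and 0.10 over matched positions. The direction of both Twist2 steps depended on how called width was treated.

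The Prrx1 locus, on chromosome 1 (163245119 to 163313710, minus strand, ENSMUSG00000026586.16), changed little in its first step. Its level was 138.7 CPM (135.0 to 142.5), 142.6 CPM (140.3 to 145.0) and 152.1 CPM (150.2 to 154.0). The intervals of E12.5 and E14.5 overlapped, and E16.5 was higher than both. From E12.5 to E16.5 its log2 ratio was 0.13 (0.09 to 0.18). Over matched positions, which were 2 of the 9 common intervals near Prrx1, the same ratio was 0.98 and that of E16.5 over E14.5 was 1.11.

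The Prrx2 locus, on chromosome 2 (30834972 to 30881251, plus strand, ENSMUSG00000039476.13), stood at 178.7 CPM (174.4 to 183.0) at E12.5, 158.9 CPM (156.5 to 161.3) at E14.5 and 159.1 CPM (157.2 to 161.0) at E16.5. In summed counts the last 2 stages did not differ beyond their counting intervals, and both lay below E12.5. The common intervals near Prrx2 were called over 22751, 13997 and 23175 bp. The log2 ratio of E14.5 over E12.5 was -0.17 in the sum but 0.53 per kb of that width. From E12.5 to E16.5 the log2 ratio of Prrx2 was -0.17 (-0.21 to -0.13).

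The Snai1 locus, on chromosome 2 (167538195 to 167542814, plus strand, ENSMUSG00000042821.7), stood at 225.1 CPM (220.3 to 230.0) at E12.5, 135.5 CPM (133.3 to 137.8) at E14.5 and 120.4 CPM (118.7 to 122.0) at E16.5. E12.5 was high and the later stages were lower, with no overlap of the intervals. The drop was 1.66-fold from E12.5 to E14.5 (log2 ratio -0.73, -0.77 to -0.69) and 1.87-fold from E12.5 to E16.5 (log2 ratio -0.90, -0.94 to -0.87). The E16.5 over E12.5 ratio of Snai1 lay at percentile 3.12 of all loci. The called width of the Snai1 intervals was 19345 bp, 11983 bp and 16526 bp, and taken per kb of that width the first ratio was -0.04 and the last -0.68. Over matched positions they were -1.20 and -0.92, and in windows of 50 kb they were -0.31 and -0.27.

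The Snai2 locus, on chromosome 16 (14705852 to 14709385, plus strand, ENSMUSG00000022676.7), stood at 62.42 CPM (59.91 to 65.0), 63.24 CPM (61.69 to 64.81) and 52.3 CPM (51.21 to 53.4). E12.5 and E14.5 overlapped and E16.5 was lower. From E12.5 to E16.5 the log2 ratio was -0.26 (-0.32 to -0.19).

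Between E12.5 and E14.5, 1 of the 6 loci (Snai1) fell by at least 1.5-fold, where 6.27% of 17479 loci fell that far, and none rose by it, where 3.07% did. The median log2 ratio was -0.07 over the 6 loci and 0.12 over all. Between E14.5 and E16.5, 1 of 6 (Twist2) rose past that fold, where 5.13% did, and none fell past it, where 3.10% did, and the medians were -0.09 and -0.14. Taken per kb of called width, all 6 fell past the fold at this step, with log2 ratios of -0.64 for Snai1 and -0.62 for Twist2, where 69.9% of all loci did. Between E12.5 and E16.5, 1 of 6 (Snai1) fell past it, where 6.80% did, and none rose past it, where 4.88% did, and the medians were -0.03 and -0.01. Over the whole period Twist1, Twist2 and Prrx1 lay above 0 and Prrx2, Snai1 and Snai2 below in these summed counts. Taken per kb of called width all 6 lay below 0, with -0.52 for Twist1, -0.22 for Twist2, -0.15 for Prrx1, -0.19 for Prrx2, -0.68 for Snai1 and -0.26 for Snai2, where 79.9% of all loci did and their median was -0.20.

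**Figure D2:**
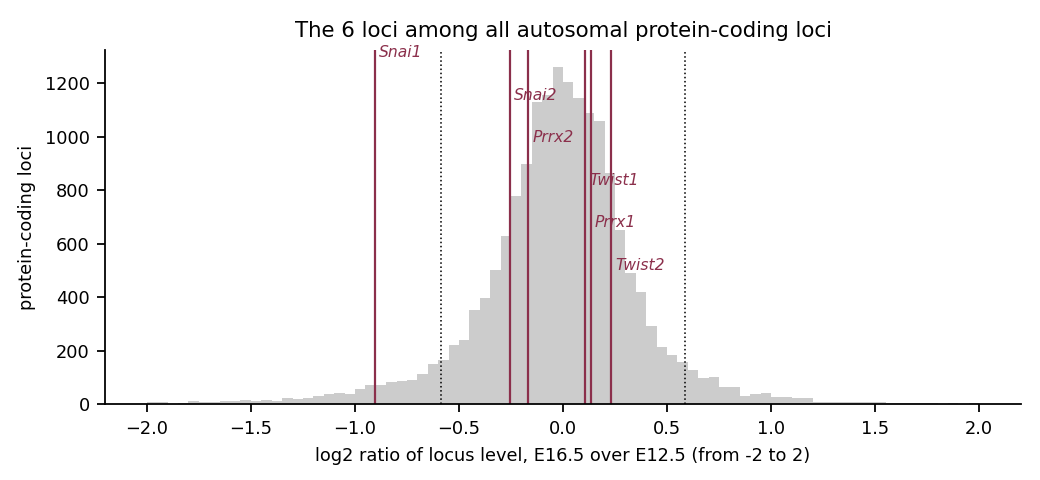
Number of protein-coding loci (vertical axis) by the log2 ratio of locus level, E16.5 over E12.5 (horizontal axis), in grey, with the 6 genes as lines and 1.5-fold in each direction as dotted lines. Snai1, at -0.90, is the 1 line outside the dotted lines, and 120 of 17479 loci lie beyond the axis.

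The start-site region of a gene is the common interval over the stretch from 1000 bp before to 100 bp after its start. At Twist1 it held 51.0, 73.4 and 54.3 CPM from E12.5 to E16.5, at Prrx1 66.6, 84.5 and 61.9 CPM, and at Prrx2 18.8, 27.5 and 18.1 CPM. E14.5 was the highest stage at each. At Twist2 the values were 47.1, 51.9 and 40.7 CPM and at Snai2 51.8, 57.3 and 45.5 CPM, again highest at E14.5. Snai1 differed in its order, with 108.0, 79.5 and 71.5 CPM, highest in the earliest library. Its start-site interval was called over 10610, 6696 and 8846 bp in the same order. At E12.5 it was the widest of these intervals and reached over the whole gene. At E14.5 and E16.5 the Prrx1 interval was called wider, over 7281 and 8899 bp. The Snai1 log2 ratio of E14.5 over E12.5 was -0.44 in the sum and 0.22 per kb of called width, so that per kb its level, too, was highest at E14.5 (10.2, 11.9 and 8.08 CPM per kb in order of stage).

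No start-site region of the 6 rose or fell by 1.5-fold from E12.5 to E14.5, where 10.5% of 14313 start-site regions rose and 6.47% fell that far. From E14.5 to E16.5 that of Prrx2 fell 1.52-fold, where 10.0% did, and none rose, where 5.05% did. From E12.5 to E16.5 that of Snai1 fell 1.51-fold, where 9.96% did, and none rose, where 5.71% did. The median log2 ratio over the 6 in these 3 comparisons was 0.24, -0.39 and -0.15, beside 0.25, -0.28 and -0.01 over all start-site regions. When start-site regions were scaled by their own total, the first of these medians was 0.01 over the 6 and 0.01 over all. In the same scaling the Snai1 region reached 1.5-fold from E12.5 to E14.5 (log2 ratio -0.68), where 10.2% of all such regions fell that far, and no longer from E12.5 to E16.5 (-0.57), and the Prrx2 region did not reach it from E14.5 to E16.5 (-0.34). From E12.5 to E14.5 this scaling turned Twist2 from 0.14 to -0.10 and Snai2 from 0.14 to -0.09, whereas Twist1 (0.29), Prrx1 (0.11) and Prrx2 (0.31) stayed above 0. Per kb of called width, 5 of the 6 rose past 1.5-fold from E12.5 to E14.5 and 5 fell past it from E14.5 to E16.5, where 38.3% and 62.2% of all start-site regions did.

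Per kb of called peak, the order of the start-site levels put Snai2 and Twist1 first and the Prrx genes last at each stage. The regions differed in called width, which at E12.5 was 2594 bp at Prrx2, 8877 bp at Prrx1 and 10610 bp at Snai1. The part of width in this order was not tested. At E12.5 the values were 13.3 CPM per kb for Snai2 (12.7 to 13.9), 13.2 for Twist1 (12.6 to 13.8), 11.1 for Twist2 (10.6 to 11.7), 10.2 for Snai1 (9.87 to 10.5), 7.50 for Prrx1 (7.21 to 7.81) and 7.25 for Prrx2 (6.72 to 7.81). Snai2 and Twist1 did not differ beyond their intervals, nor did Prrx1 and Prrx2. At E14.5 the order was Snai2 with 23.1, Twist1 with 20.3, Twist2 with 17.5, Snai1 with 11.9, Prrx2 with 11.7 and Prrx1 with 11.6 CPM per kb. The last 3 overlapped there and the first 3 did not. At E16.5 Twist1 stood at 11.6 and Snai2 at 11.1, with intervals that met at 11.3, followed without overlap by Twist2 at 10.0, Snai1 at 8.08, Prrx1 at 6.95 and Prrx2 at 6.24 CPM per kb. The median over all start-site regions was 13.5, 19.9 and 12.3 CPM per kb at the 3 stages, so Prrx1, Prrx2, Snai1 and Twist2 were below it at each stage.

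Prrx2 has another annotated start, the GENCODE gene start, upstream of the RefSeq start. The common interval over it, centred 11.2 kb upstream of the RefSeq start, held 28.0, 18.3 and 19.0 CPM from the earliest to the latest stage. It was called over 2310, 1371 and 2343 bp and the RefSeq start-site region over 2594, 2357 and 2904 bp. From E12.5 to E14.5 the log2 ratio of the upstream start was -0.61 in the sum but 0.14 per kb of called width, and that of the RefSeq start was 0.55 and 0.69. Another interval 16.9 kb upstream in the Prrx2 window, with 27.6, 25.5 and 28.5 CPM, is the start site of Asb6 and so cannot be assigned to Prrx2.

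The genes differed in how much of the locus signal lay at the start site. At Snai2 the start-site region carried 83.0%, 90.5% and 87.0% of the locus counts from E12.5 to E16.5, and at Prrx2 10.5%, 17.3% and 11.4%. The Prrx2 share counts its RefSeq start alone. Its upstream start (28.0 CPM at E12.5) and the start of Asb6 (27.6 CPM) count to the rest of that locus, beside 18.8 CPM at the RefSeq start. The low Prrx2 share therefore depends on this choice of start. At Twist2 the share was 39.1%, 61.9% and 28.8%, at Twist1 45.4%, 52.4% and 44.9%, and at Prrx1 48.0%, 59.3% and 40.7%. At Snai1 it was 48.0%, 58.7% and 59.4%, so it was lowest at E12.5.

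Away from start sites the 6 loci held 35 common intervals, 32 of which had at least 50 fragments in each library. For each gene, the distal interval with the highest mean level and those with the largest rise and fall from E12.5 to E16.5 are described, and others where they differ in pattern.

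**Figure D3:**
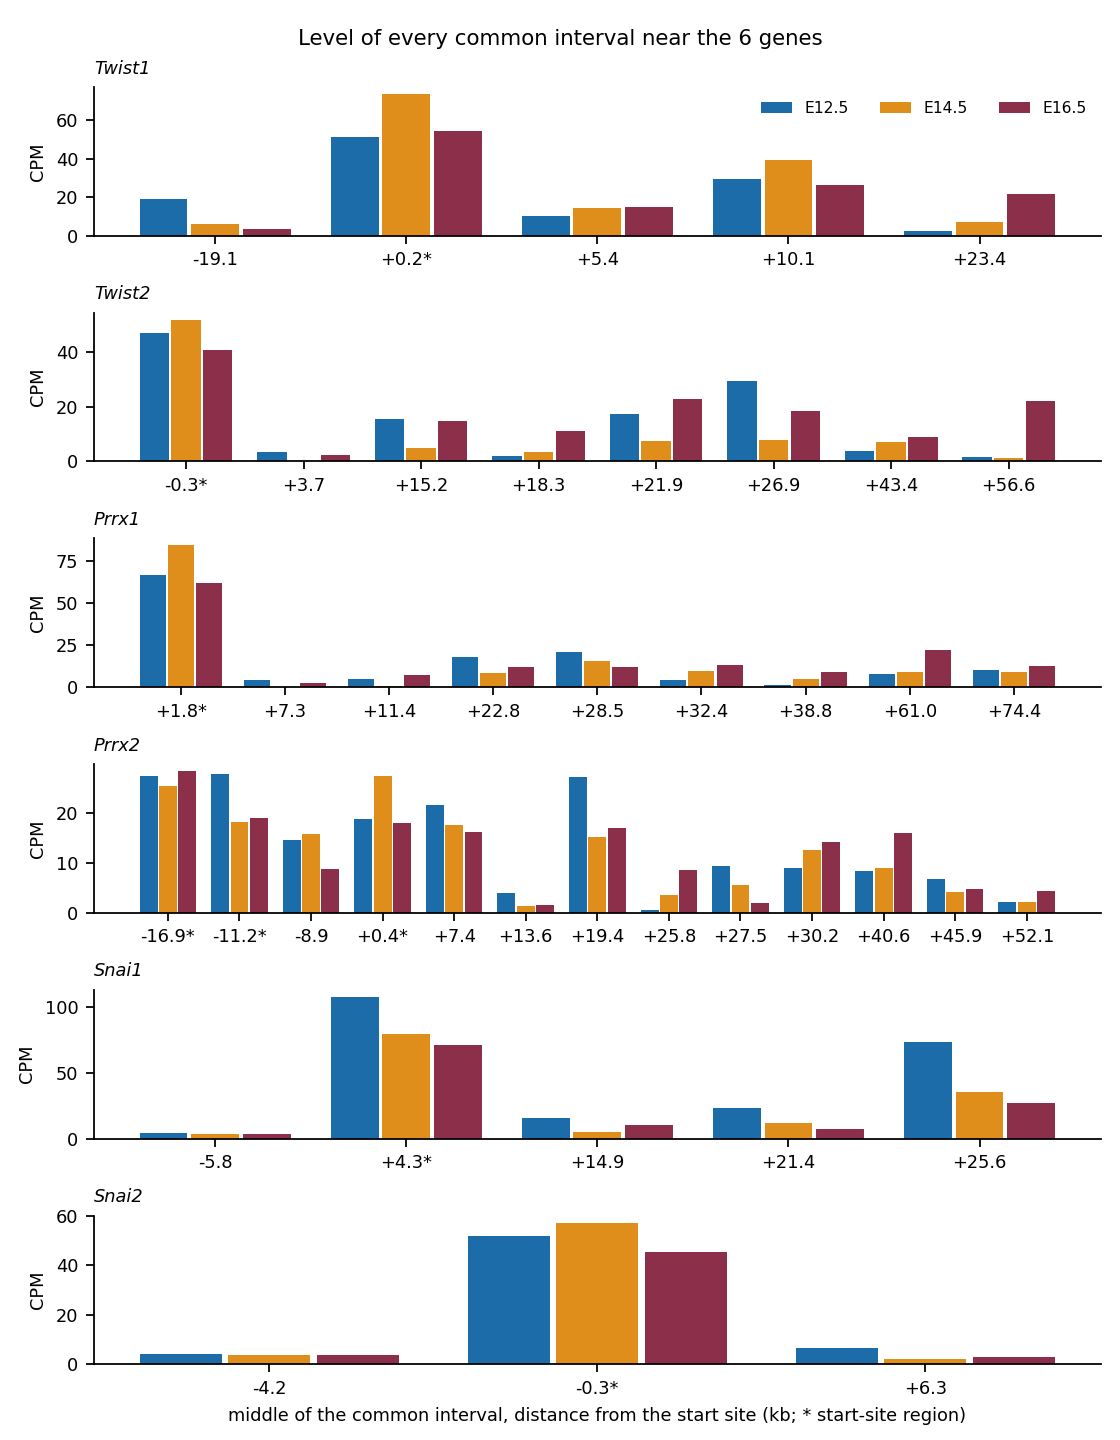
Level of every common interval (vertical axes, CPM) near each of the 6 genes in the 3 libraries, ordered by the distance of its middle from the start site of the gene (horizontal axes, kb, a star marks a start-site region of any gene). Each bar is 1 library, without error bars. Intervals 19.1 kb upstream of Twist1, 27.5 kb into Prrx2, and 21.4 and 25.6 kb downstream of Snai1 fall from E12.5 to E16.5, and those 23.4 kb from Twist1 and 56.6 kb from Twist2 rise.

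Near Twist1 the highest distal interval lay 10.1 kb downstream, with 29.4, 39.0 and 26.4 CPM. The interval 19.1 kb upstream fell at each step, with 19.0, 6.20 and 3.51 CPM. It was a peak of matched position, and its log2 ratio of E16.5 over E12.5 was -2.44 (-2.59 to -2.28), or -1.74 per kb of called width. The interval 23.4 kb downstream rose from 2.43 to 6.90 and 21.6 CPM, a log2 ratio of 3.15, while its called width grew from 501 to 990 and 4684 bp. Per kb of called width its log2 ratio was -0.07.

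Near Twist2, the introns held intervals with a dip at E14.5, as at 15.2 kb (15.6, 4.82 and 14.9 CPM) and 21.9 kb (17.4, 7.37 and 23.0 CPM), and others without it, as at 43.4 kb (3.80, 7.03 and 8.84 CPM). Per kb of called width, the log2 ratios of successive stages were -0.96 and 0.63 at 15.2 kb. At 21.9 kb they were smaller, -0.20 and 0.32, with called widths of 1601, 782 and 1961 bp. The highest on average, 26.9 kb into the gene, held 29.4, 7.99 and 18.6 CPM and was also the one with the largest fall from E12.5 to E16.5, at -0.66 on the log2 scale. It was called over 4935, 1645 and 5795 bp, and per kb it fell at both steps (log2 ratios -0.30 and -0.60). The largest rise was 56.6 kb from the start, beyond the gene's end, with 1.70, 1.28 and 22.1 CPM and a log2 ratio of 3.70, or 1.25 per kb of called width. Called width there was 500, 313 and 2722 bp.

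Near Prrx1, the interval 61.0 kb into the gene, over an exon, had 7.92, 9.02 and 22 CPM. It was of matched position, and rose by a log2 ratio of 1.48, or 0.72 per kb. The largest rise of Prrx1 was 38.8 kb into the gene, in an intron, from 1.23 to 5 and 8.84 CPM (log2 ratio 2.85, 0.92 per kb). The interval 28.5 kb into the gene had the highest mean level and the largest fall, with 20.9, 15.7 and 11.9 CPM and a log2 ratio of -0.81. Introns of Prrx1 held both rising and falling intervals, and the sum over the locus changed by a log2 ratio of 0.13.

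Near Prrx2 the highest distal interval lay 19.4 kb into the gene, with 27.4, 15.2 and 17.0 CPM. The one 27.5 kb into the gene fell at each step in CPM, from 9.43 to 5.55 and 2.01, with a log2 ratio of -2.23 (-1.34 per kb) and matched positions. Per kb of called width its log2 ratio of E14.5 over E12.5 was 0.10, and that of E16.5 over E14.5 was -1.44. The largest rise among intervals with enough fragments was 52.1 kb from the start, from 2.27 to 2.22 and 4.40 CPM (log2 ratio 0.96, 0.58 per kb), and 40.6 kb from the start it was nearly as large, from 8.39 to 9.07 and 16 CPM (log2 ratio 0.93, 0.75 per kb). The interval 25.8 kb from the start, which had fewer than 50 fragments at E12.5, held 0.635, 3.70 and 8.61 CPM.

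Near Snai1 all 5 common intervals were lower at E16.5 than at E12.5. The highest distal interval, 25.6 kb downstream, held 73.7, 35.6 and 27.2 CPM in order of stage, with a log2 ratio of -1.44 (-1.23 per kb). The one 21.4 kb downstream had the largest fall, from 23.3 to 12.2 and 7.38 CPM, with a log2 ratio of -1.66 (-1.15 per kb) over peaks of matched position. The interval nearest to no change lay 5.8 kb upstream, with 4.36, 3.45 and 3.58 CPM. The interval 14.9 kb downstream, a peak of matched position, held 15.7, 4.77 and 10.7 CPM. It rose 2.25-fold from E14.5 to E16.5 (log2 ratio 1.17, 1.03 to 1.32, or 0.37 per kb) and stayed below its E12.5 level.

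Near Snai2 there were only 2 intervals away from the start, both weak. The one 6.3 kb downstream fell from 6.42 to 2.07 and 2.94 CPM (log2 ratio -1.13, -0.94 per kb), and the one 4.2 kb upstream held 4.20, 3.91 and 3.87 CPM.

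From E12.5 to E14.5, 14 of these 32 intervals fell by at least 1.5-fold, where 40.6% of 61536 common intervals away from start sites did, and 5 rose, where 14.4% did. From E14.5 to E16.5, 12 rose, where 35.0% did, and 4 fell, where 15.1% did. From E12.5 to E16.5, 11 rose and 11 fell, where 26.0% and 30.8% did. The medians were -0.37, 0.37 and -0.14 for the 32 and -0.40, 0.27 and -0.09 for all. With intervals away from start sites scaled by their own total, 8 of the 32 rose and 12 fell at the first step (20.1% and 30.0% of all), 10 rose and 7 fell at the next (24.6% and 22.9%), and 11 rose and 11 fell over the whole period (25.4% and 31.5%). E14.5 was the lowest stage at 14 of the 32 (43.8%) and at 45.5% of all 61536, and per kb of called width at 3 of the 32 (9.38%) and 4.91% of all.

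**Figure D4:**
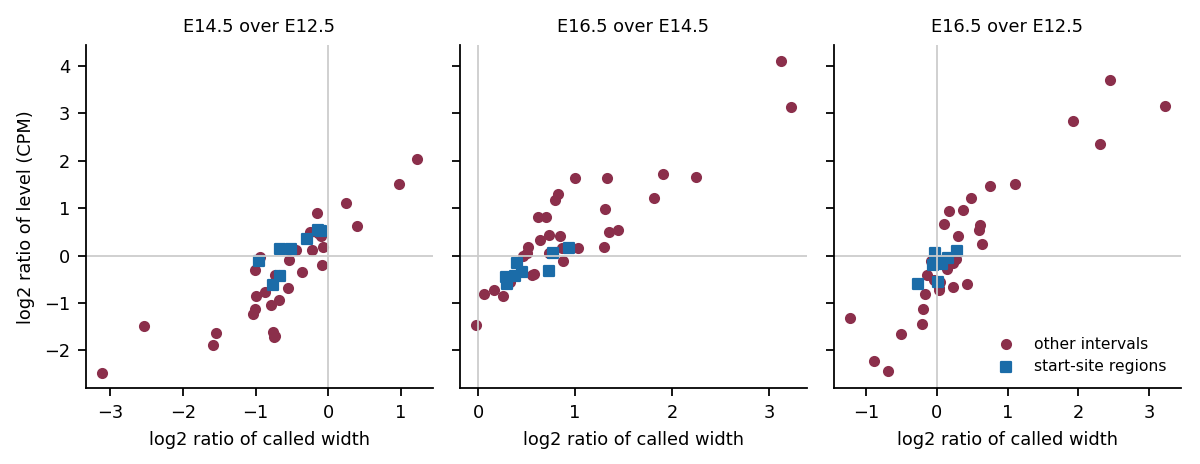
Log2 ratio of level (vertical axis) against log2 ratio of called width (horizontal axis) for the 40 common intervals near the 6 genes with at least 50 fragments in each library, in the 3 comparisons. Circles are intervals away from start sites and squares start-site regions of any gene. The 28 of 32 circles left of 0 in the first panel were called narrower at E14.5 than at E12.5, and 31 of 32 were called wider at E16.5 than at E14.5.

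Called width moved with these levels. From E12.5 to E14.5, 28 of the 32 were called narrower, with a median log2 width ratio of -0.68 (-0.57 over all), and from E14.5 to E16.5, 31 were called wider, with a median of 0.81 (0.67 over all). The part of called width in the levels was not tested.

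Peaks near the 6 genes were called most often at E16.5. Of the 99 regions, 43 (43.4%) were common, against 31.8% of regions in the series, and 7 were called only at E12.5, none only at E14.5 and 27 only at E16.5. Of those 27, 13 lay near Twist2, 10 near Prrx1, 2 near Prrx2 and 2 near Twist1. Near Snai1 and Snai2 no region was called in 1 library alone. In the series, 19.5% of regions were called only at E12.5, 0.254% only at E14.5 and 27.5% only at E16.5, and near the 6 genes 7.07%, 0% and 27.3%. Counts were deposited only for called peaks, so a region without a peak has no value and is not at 0.

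The share of nuclei with a fragment at a start-site region was compared at matched depth. All nuclei were thinned to 1074 fragments in common intervals, and shallower nuclei were left out (2071 at E12.5, none at E14.5 and 252 at E16.5). Median depth before thinning was 2541.5, 4294.0 and 10841.5 fragments. From the earliest to the latest stage, the share at Snai1 was 9.51% (8.80 to 10.3, exact binomial), 7.33% (6.97 to 7.70) and 7.44% (7.00 to 7.89). The E12.5 share was above the other 2, which overlapped. This region was called over 10610, 6696 and 8846 bp, a difference for which the shares are not corrected. Without thinning the shares were 26.1%, 28.2% and 48.2%, in the order of depth.

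At Twist1 the share was 4.72% (4.21 to 5.28), 7.58% (7.22 to 7.96) and 5.48% (5.11 to 5.87), and at Prrx1 it was 5.50% (4.94 to 6.09), 8.03% (7.65 to 8.41) and 5.84% (5.45 to 6.24). Both were highest at E14.5, with E12.5 and E16.5 overlapping. Twist2 followed the same pattern with 3.78%, 5.19% and 4.02%, as did Prrx2 with 1.91%, 2.75% and 1.88%. Snai2 was at 5.40% (4.85 to 5.99), 5.92% (5.60 to 6.26) and 4.94% (4.59 to 5.32), and only E14.5 and E16.5 were apart. Without thinning these 5 genes reached 15.5%, 27.6% and 41.0% at Twist1, 18.3%, 29.9% and 43.7% at Prrx1, 14.2%, 20.4% and 33.3% at Twist2, 6.93%, 11.9% and 17.7% at Prrx2, and 16.6%, 22.9% and 37.3% at Snai2. Depth was matched over all common intervals, of whose counts start sites took 54.9% at E14.5, 46.6% at E12.5 and 45.9% at E16.5. The part of this difference in the shares was not tested. Fewer open nuclei and fewer fragments per open nucleus cannot be told apart in such sparse counts.

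Start sites of 5 off-lineage genes with a common interval of their own (Myod1, Pax7, Cdh5, Tal1 and Sox10) had a fragment in between 0.498% and 1.91% of nuclei in the E12.5 library, between 0.135% and 1.61% in the E14.5 library and between 0.551% and 1.91% in the E16.5 library. Prrx2, at 1.91% and 1.88% at E12.5 and E16.5, did not exceed the highest of these in nuclei of the same depth, so its share alone does not set it apart from them there. Shares are not corrected for called width, which at E12.5 was 3261 bp for Myod1, the highest of the 5, and 2594 bp for Prrx2. Per kb of called peak Prrx2 stood at 7.25, 11.7 and 6.24 CPM, above the 4.79, 9.69 and 5.43 CPM of the highest of these 5 intervals.

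**Figure D5:**
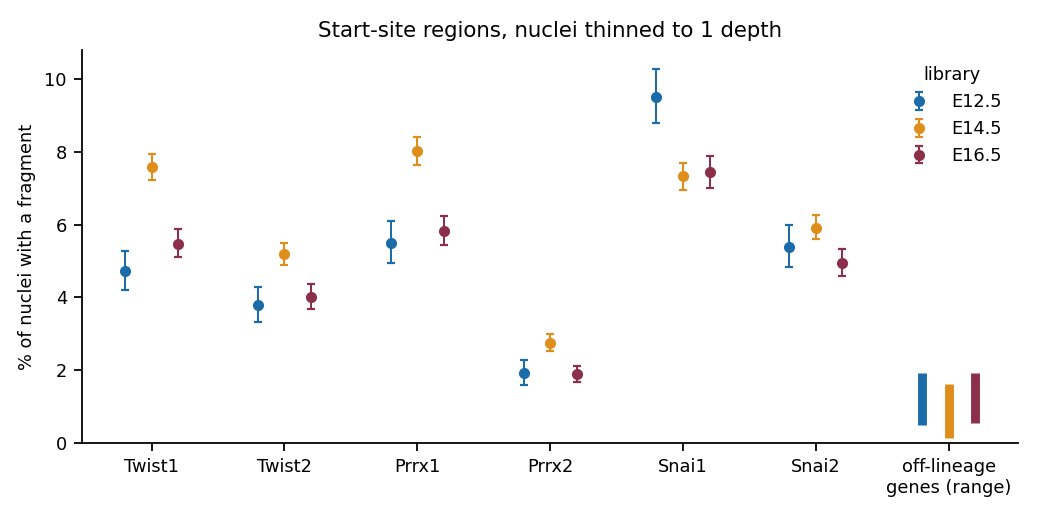
Share of nuclei with a fragment at the start-site region (vertical axis, percent) for the 6 genes (horizontal axis) in the 3 libraries, all nuclei thinned to the same depth. Points are 1 library each, whiskers are 95% exact binomial intervals, and the thick lines at the right give the range over 5 off-lineage genes. Snai1 is highest at E12.5 with 9.51%, and Prrx2, shown by its RefSeq start alone, does not exceed the off-lineage range at E12.5 and E16.5.

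Over the whole locus at the same depth, Snai1 had a fragment in 19.4% (18.4 to 20.4), 12.2% (11.8 to 12.7) and 12.1% (11.5 to 12.6) of nuclei, in order of stage. Twist2 had one in 10.8%, 8.40% and 13.4% of nuclei. Nuclei with a fragment at none of the 6 loci were 43.7%, 47.1% and 46.9% of all, those with 1 locus 39.5%, 38.2% and 37.7%, and no nucleus had a fragment at all 6.

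Nuclei were also gated by their fragments in genes of 4 lineages (chondrogenic, tenogenic, dermal fibrogenic and fibrogenic panels of 7 or 8 genes, without the 6 members). In each library and panel the gate took nuclei with at least 2 fragments, which was 3.09% to 9.18% of nuclei, and 1189 to 5608 nuclei lay 1 fragment below it. Mean panel scores were 2.12 to 2.36 fragments in gated nuclei and 0.197 to 0.308 in the others. A gate is a range of a score and not a cell type. How far counting error alone fills such gates was not tested, so their names assign no lineage. Of 72 ratios of locus level in gated over other nuclei, 7 had an interval above 0 and 5 below. Over all 166102 such ratios of loci with at least 20 expected fragments in the gate, a floor not set for the 72, 4.07% lay above and 3.34% below in the same way. Of the 12 calls, 7 lay outside the 5th to 95th percentile of all loci in their gate and library. The calls were picked for lying away from 0, so this count does not set the 6 genes apart. The share of all called loci that lay outside, or that was kept in other gates, was not computed. A gate that aimed at the top 5% of nuclei differed for 10 of the 12 calls, and 3 of these 10 kept an interval on the same side of 0. Where it differed, it asked for more fragments per nucleus and took fewer nuclei, below 5% of them. The part of these smaller counts in the losses was not tested. In the E16.5 library, nuclei in the chondrogenic gate had less signal at Prrx1 (10.7% of 730 nuclei against 14.2% of the others, log2 ratio -0.46, -0.79 to -0.14) and Twist2 (10.1% against 13.6%, -0.51, -0.86 to -0.18). Prrx2 was lower as well (13.2% against 15.2%, -0.29, upper bound -0.002), and Snai1 was higher (14.7% against 11.9%, 0.32, 0.04 to 0.59). Over 14943 loci the median of this ratio was 0.05, with 5th and 95th percentiles of -0.44 and 0.47, so the Prrx2 and Snai1 values lay inside that range. Start sites took 48.8% of the counts of these gated E16.5 nuclei and 44.3% of the others. Without nuclei of high start-site share the 4 ratios were -0.56 for Prrx1, -0.49 for Twist2, -0.32 for Prrx2 and 0.32 for Snai1, each with an interval on the same side of 0. In the top 5% gate Prrx2 was at -0.46 (-1.13 to 0.15) and no longer apart from 0. Twist2 (-0.94), Prrx1 (-0.72) and Snai1 (0.78) kept an interval on the same side of 0 there. Prrx1 was also lower in the chondrogenic gate at E14.5 (11.5% against 13.8%, -0.30, -0.58 to -0.04), a value inside the range over all loci (-0.33 to 0.32). Without nuclei of high start-site share it was -0.28 (-0.62 to 0.05) and no longer apart from 0. At E12.5 Twist2 was higher in the chondrogenic gate (14.5% against 10.7%, 0.50, 0.08 to 0.90), with 54 fragments in 318 nuclei, and the 95th percentile over all loci was 0.42. In the top 5% gate it was at 0.60 (-0.46 to 1.49), with 10 fragments.

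In the tenogenic gate at E12.5 Snai2 was higher (8.86% against 6.39%, log2 ratio 0.57, 0.10 to 1) and Snai1 lower (15.8% against 19.7%, -0.35, -0.68 to -0.03), beside -0.48 and 0.37 as the 5th and 95th percentiles over all loci. Neither was kept in the top 5% gate, which held 8 fragments at Snai2 and 22 at Snai1. Snai2 was at 0.27 there (-0.95 to 1.26) and Snai1 turned to 0.04 (-0.64 to 0.65). In the dermal fibrogenic gate Prrx2 (0.29, 0.13 to 0.45) and Twist2 (0.23, 0.01 to 0.45) were higher at E14.5 and Twist1 at E16.5 (0.32, 0.08 to 0.55), where the 95th percentiles over all loci were 0.24 and 0.29. Without nuclei of high start-site share Twist2 turned to -0.04 (-0.35 to 0.25) and Prrx2 stayed above 0 (0.25, 0.04 to 0.45). In the smaller top 5% gate Prrx2 was at 0.32 (-0.02 to 0.64) and Twist1 at 0.17 (-0.43 to 0.72), neither apart from 0. In the fibrogenic gate Snai1 was higher at E12.5 (0.44, 0.04 to 0.81), with 60 fragments and a 95th percentile of 0.41. No gene had an interval on the same side of 0 in all 3 libraries. At start-site regions, 4 of 72 intervals lay above 0 and 2 below, and 2 of these 6 were lost without nuclei of high start-site share. Over 90946 ratios of start-site regions with at least 20 expected fragments in the gate, 3.21% lay above and 2.59% below. The 72 were not held to that floor, so the shares are not strictly alike. The top 5% gate differed for 4 of the 6, and none of those 4 was kept. The share of all called start-site regions lost or kept in this way was not computed.

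Of the related genes, the helix-loop-helix partners and inhibitors Tcf3, Tcf4, Tcf12, Hand1, Hand2 and Id1 to Id4 had a median of -0.43 from E12.5 to E16.5 on the log2 scale over 9 loci (-0.01 over all loci), 7 of them below 0 and 1 (Id1) fell past 1.5-fold, where 6.80% of all loci did. All 9 lay below 0 per kb of called width, where 79.9% of all loci did, with a median of -0.32 beside -0.20 over all loci. Of these 9, 2 (Id1 at -0.91 and Hand1 at -0.61) fell past the fold, where 8.11% did. Id1, an inhibitor of helix-loop-helix factors, went from 254 to 150 and 134 CPM (log2 ratio -0.92), and Tcf4, an E protein, had the highest ratio at 0.21, or -0.17 per kb. The related homeobox genes Alx1, Alx4, Shox2, Msx1 and Msx2 ranged from -0.48 at Msx2 to 0.10 at Shox2, with none past the fold, although per kb Msx2 was past it at -0.66. Zeb1, Zeb2 and Snai3, other zinc finger factors of this type, had a median of 0.24, from -0.35 at Snai3 to 0.26 at Zeb1, with none past the fold. All 3 lay below 0 per kb of called width, where 79.9% of all loci did, with a median of -0.29, beside -0.20 over all loci. Zeb1 had a log2 ratio of 0.73 from E12.5 to E14.5, which was 0.54 and short of 1.5-fold once start-site and other regions were scaled apart.

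Among 7 genes known as targets (Cdh1, Cdh2, Fn1, Vim, Fgfr1, Fgfr2 and Pdgfra) the median was 0.13, and 1 rose and 1 fell past 1.5-fold, where 4.88% and 6.80% of all loci did. All 7 lay below 0 per kb of called width, where 79.9% of all loci did, with a median of -0.33 beside -0.20. None passed the fold, where 8.11% of all loci fell and 0.744% rose past it. Vim, an intermediate filament of mesenchymal cells, had 109, 115 and 181 CPM (log2 ratio 0.74, or -0.33 per kb of called width), and Cdh2, N-cadherin, 208, 198 and 128 CPM (log2 ratio -0.71, or -0.36 per kb). Cdh1, E-cadherin, which Snai factors silence, held 101, 62.1 and 74.9 CPM.

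The loci closest to a member in its 2 successive log2 ratios, among those within 2-fold of its mean level, were Id1 (distance 0.033 on the log2 scale) and Iqschfp (0.047) for Snai1, Stn1 (0.034) and Ccin (0.084) for Twist2, Taok1 (0.0054) and Zfp346 (0.0058) for Twist1, S1pr3 (0.0040) for Prrx1, Zic2 (0.0067) and Arhgef17 (0.0070) for Prrx2, and Pcyt1a (0.0013) and Prkab1 (0.0027) for Snai2. Likeness rests on 3 libraries. Within a distance of 0.1 there were 3 loci for Twist2 and 8 for Snai1, but 247 to 1055 for the other 4 members, whose nearest loci are therefore a few among many.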

How the data were processed

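One scATAC-seq library per stage was analysed, with groups taken from the labels. The authors' deposited matrices hold counts, cut sites per called peak and nucleus, made with Cell Ranger ATAC on mm10 (version 1.1.0 in the submitters' processing notes, but 1.0.1 in the headers of the earlier libraries and 1.2.0 in that of E16.5), with peaks called in each library alone. Peaks were merged across libraries (bedtools 2.31.1, overlap of 1 bp), and loci were defined on GENCODE vM21. Counts were scaled to the library total in autosomal common intervals. Each fragment leaves a pair of cut sites (89.5% to 94.1% of entries were even), so entries were divided by 2 and rounded up to fragments. Ratios are on the log2 scale, a change was counted from 1.5-fold, and features needed 50 fragments in each library.

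With 1 library per stage no test between stages was made and no p-value is given. Intervals are exact Poisson or binomial, 95%, and cover counting error only. Nuclei were thinned to the 25th percentile of E12.5 depth. All deposited nuclei were used and no doublet caller was run. The tenogenic panel lost 1 gene, which lies on X. The 6 genes, the gene lists and the alternatives were chosen with earlier results of these data known. Named genes are the 6, the highest and lowest of each related group, and the 2 nearest loci of each. Some items of these lists are not reported here. Scripts were tested on simulated data (Python 3.11.15, numpy 2.4.6, scipy 1.17.1, pandas 2.3.3).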

Additional observations from a re-analysis of the deposited data

Results flagged for a closer look

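Outside the common intervals that the comparisons used, regions near the 6 genes were called in only 1 or 2 libraries. A library without a peak there has no value and is not at 0, so these are given as values and no difference is read from them. Of regions with more than 3 counts, which nearly every called peak has, there were 27 called at E16.5 alone, 6 at E12.5 alone, 21 at E12.5 and E16.5 but not E14.5, and 1 at E14.5 and E16.5 but not E12.5. The strongest at E16.5 alone lay 14.3 kb into Prrx1, with 8.05 CPM from 1376 fragments and 7.76% of nuclei. Next came one 20.1 kb upstream of Twist2, with 4.77 CPM from 827 fragments. At E12.5 alone the strongest lay 14.5 kb upstream of Twist1, with 4.13 CPM from 160 fragments. Among those of 2 libraries, one 48.6 kb into Prrx1 held 0.0946 CPM, 7 fragments over a called width of 57 bp, and 6.10 CPM over 1524 bp, and one 17.1 kb upstream of Twist1 had 5.86 and 1.38 CPM over 1399 and 561 bp. Total cut sites were 87048167, 204289151 and 413425059 at the 3 stages, and peaks were called in each library alone. The part of depth in these calls was not tested.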

How the results depend on the processing

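No paired analysis was possible because each stage was 1 library. The median log2 ratio over the 6 loci moved with the treatment of called width and scaling. For E14.5 over E12.5 it was -0.075, and 0.10 scaled to counts in all called peaks, 0.459 per kb of called width, -0.172 over matched positions and -0.191 scaled by the median ratio over genes. For E16.5 over E14.5 it was -0.085, and in the same order -0.34, -0.69, 0.121 and 0.05, with 0.02 over all peaks of each library, -0.157 over gene body and 2 kb upstream, 0.024 with 50 kb either side and 0.016 without nuclei of high start-site share. For E16.5 over E12.5 it was -0.031, and -0.111 scaled to counts in all called peaks and -0.242 per kb. The other 28 of 42 medians stayed within the counting interval. Twist2, E16.5 over E14.5, turned to -0.62 per kb and -0.058 over matched positions. Snai1, E16.5 over E12.5, was lower in 14 of 14 alternatives and past 1.5-fold in 13, the exception being 50 kb either side (-0.271). Snai1, E14.5 over E12.5, was lower in 14 and past it in 9 of 14 (-0.557 scaled to all called peaks, -0.041 per kb, -0.583 binarised, -0.441 over gene body and -0.307 with 50 kb), and Twist2, E16.5 over E14.5, was past it in its direction in 8 of 14. Peaks at E12.5 open in at least 1% of nuclei were 42 of 77. All 108 shares of nuclei moved with depth, unit or thinning. Beyond construction of the alternatives, the cause was not tested. Depth limits the E12.5 library most, with 87048167 cut sites.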
